A study of Mus musculus with 44 samples.

Results

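The 6 genes described here are Trhde, Slc13a2, Moxd1, Lect1, Lrtm1 and Sgcz, which were picked from 20105 identifiers in a mouse liver count table because their counts in hepatocyte nuclei were very low in livers with steatohepatitis. All 6 were found by symbol: 5 through the symbols of the authors' deposited fold-change table and Moxd1 through a RefSeq gene table. The rule that describes them reads counts and CPM (counts scaled to a library total of 1000000) in hepatocyte nuclei and in whole liver nuclei, so levels and fold changes of disease groups are given below as a description, with no test. In advanced disease on the first diet, the group means in hepatocyte nuclei were 0.161% to 2.44% of the control mean. There, with no share over all genes worked out for comparison, 5 of the 6 genes were below every control mouse. Moxd1 was not: 2 of its 4 controls lay within the range of the diseased mice, so the description "lost almost fully" does not hold for it on that diet. On the second diet the same range was 0.0955% to 32.8%, with 4 of the 6 genes under 5%, and the label does not describe Sgcz and Lrtm1 there.

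The study used male HEP-INTACT mice, a line whose hepatocyte nuclei carry a tag and can be pulled from a liver homogenate on beads. The first group of mice ate an FPC diet for 20 weeks and the second a CDAHFD for 7 weeks, and each had its own controls on a low fat diet for the same period. Each study has 4 control mice, 4 mice with mild disease and 3 with advanced disease. The mice on a disease diet were split by liver histology after feeding: both groups had steatosis and inflammation, and fibrosis marked the advanced group. Mild and advanced mice of a study were fed for the same period, so these groups are not time points. From each of the 22 mice RNA was sequenced both from whole liver nuclei, before the pull-down, and from the hepatocyte nuclei, giving 44 libraries. Diet, weeks of feeding and study cannot be told apart. The RNA was total nuclear RNA without selection for poly-adenylated transcripts, and the counted length of a gene spans its introns. Library totals ran from 12135408 to 33063251 counts, with a median of 22798944. They were lowest in the hepatocyte nuclei of advanced CDAHFD mice, at 12135408 to 21920437, and counts are printed below wherever they are small. Mice are named by study, group and number. The age of the mice and the promoter that drives the tag are not given in the sources used here.

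Both fractions were checked against marker genes. The summed level of 8 hepatocyte markers (Alb, Apob, Cps1 and others) was 11232 to 17459 CPM in the hepatocyte nuclei of FPC controls and 6647 to 9700 CPM in advanced disease; in the CDAHFD study it was 10329 to 20070 and 7704 to 9927 CPM. Markers of bile duct cells (5 genes, such as Krt19 and Epcam) moved the other way in hepatocyte nuclei, from 17.0 to 23.4 CPM in FPC controls to 738 to 1268 CPM in advanced disease, and from 13.3 to 21.5 to 223 to 374 CPM in the CDAHFD study. The 7 macrophage markers went from 9.19 to 11.4 CPM to 43.6 to 47.3 CPM, and from 5.38 to 13.4 CPM to 73.1 to 97.1 CPM. No marker list had a gene at 0 throughout a group. The part of these shifts in the results below was not tested, and in bulk nuclei fewer cells of a type and less RNA per cell cannot be told apart.

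The 6 genes encode unrelated proteins, and most are better known from other organs than from liver. Trhde is a membrane-bound peptidase that inactivates thyrotropin-releasing hormone, the hypothalamic peptide that drives the thyroid axis. Slc13a2 carries dicarboxylates and citrate into cells with sodium and is best known from kidney and intestine. Moxd1 belongs to the copper-dependent monooxygenases, whose best known member, dopamine beta-hydroxylase, makes noradrenaline. Lect1, now named Cnmd (chondromodulin), is a cartilage glycoprotein that blocks the growth of blood vessels. Lrtm1 is a membrane protein with leucine-rich repeats, and Sgcz is zeta-sarcoglycan, a member of the family that anchors the dystrophin complex in the membrane of muscle cells.

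The genes differ greatly in length, so that levels can be set side by side only per length. Divided by the length in kilobases (the counted length in the authors' deposited table, or for Moxd1 the RefSeq gene length), the mean level in hepatocyte nuclei of FPC controls was 1.80 CPM per kb for Lrtm1, 0.926 for Slc13a2, 0.472 for Trhde, 0.464 for Moxd1, 0.294 for Lect1 and 0.0382 for Sgcz. In CDAHFD controls the order was Lrtm1 (1.05), Moxd1 (0.764), Trhde (0.288), Lect1 (0.174), Slc13a2 (0.122) and Sgcz (0.0589). Slc13a2 thus moved from the second place to the fifth, and Moxd1 from the fourth to the second. Moxd1's place in either order rests on single mice, as given below.

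**Figure D1:**
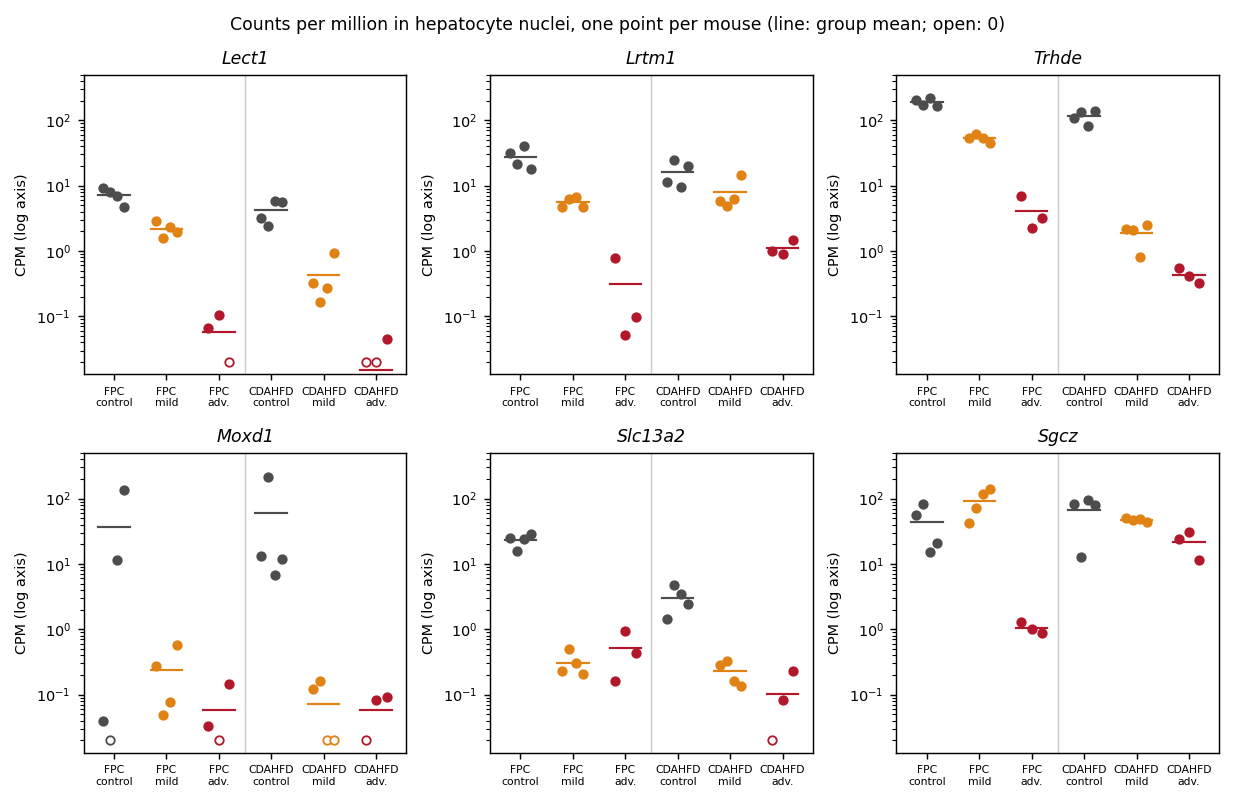
CPM (log axis) of the 6 genes in the hepatocyte nuclei of each mouse, by study and disease group; lines are group means and open symbols, drawn at 0.02, are libraries with no count. Trhde, Lect1 and Lrtm1 step down from control through mild to advanced disease, Slc13a2 is already at its low level in mild disease, Moxd1 is spread from 0 to 136 CPM in FPC controls, and Sgcz is low in advanced FPC mice but not in mild ones.

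Trhde had the highest counts of the 6 genes in controls and the narrowest range among them. It spans chr10:114398820-114802302 (GRCm38.p6). In hepatocyte nuclei of the FPC study the 4 controls stood at 206, 169, 222 and 163 CPM, the 4 mild mice at 54.2, 61.6, 53.7 and 44.1 CPM, and the 3 advanced mice at 6.83, 2.26 and 3.24 CPM. The 3 groups did not overlap, and the mean of 190.0 ± 28.8 CPM (SD, n = 4) in controls compared with 53.4 ± 7.16 (n = 4) in mild and 4.11 ± 2.41 (n = 3) in advanced disease. In the CDAHFD study the controls stood at 109, 133, 81.2 and 140 CPM, the mild mice at 2.18, 2.12, 0.805 and 2.5 CPM, and the advanced mice at 0.545, 0.412 and 0.319 CPM. Mild disease on the CDAHFD thus left 1.64% of the control level, against 28.1% on the FPC diet, and advanced disease left 0.368% and 2.16%. The estimated log2 difference of advanced FPC mice from controls was -5.87, and -6.55 without mouse FPC_Advanced_6826; from mild mice it was -3.80, and -4.48 without that mouse. The 319 counts of the advanced FPC mice and the 19 counts of the advanced CDAHFD mice, over all 3 libraries each, are the depth behind the lowest values.

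The 250 bases before the start that the RefSeq promoter table gives for Trhde, on the reverse strand at chr10:114802303-114802552, are shown because this gene had the clearest stepwise pattern. No capitals are set, since none of the 7 motifs searched (listed below, with the sequences of Moxd1 and Slc13a2) occurs there. The run of alternating ca and cg near its end is visible in the letters.
Trhde: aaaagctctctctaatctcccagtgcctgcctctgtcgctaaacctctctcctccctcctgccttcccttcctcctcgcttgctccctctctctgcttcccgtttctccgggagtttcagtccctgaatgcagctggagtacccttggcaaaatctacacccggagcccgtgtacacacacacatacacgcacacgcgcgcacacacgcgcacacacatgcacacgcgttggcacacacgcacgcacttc

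Slc13a2 lies at chr11:78397276-78422281 (GRCm38.p6) and had a different course, with no further step from mild to advanced disease on the FPC diet. Its FPC controls stood at 24.7, 15.6, 23.7 and 28.3 CPM in hepatocyte nuclei, the mild mice at 0.231, 0.492, 0.304 and 0.209 CPM, and the advanced mice at 0.163, 0.947 and 0.435 CPM. The mild and advanced mice overlapped each other, and both were far below every control: 1.34% and 2.23% of the control mean. Mouse FPC_Advanced_6880 held 61.3% of the advanced sum. Without it the advanced share was 1.30%, the log2 difference from controls went from -5.99 to -6.71 and that from mild mice from 0.47 to -0.24. In the CDAHFD study the controls themselves were low, at 1.44, 4.78, 3.5 and 2.4 CPM, none of which reached the lowest FPC control. The mild mice there stood at 0.283, 0.326, 0.161 and 0.135 CPM and the advanced mice at 0, 0.0824 and 0.228 CPM, the latter from 0, 1 and 5 counts. Relative to so low a starting level, 7.46% was left in mild and 3.42% in advanced disease, and the advanced share rests on 6 counts in all. It was 1.36% without mouse CDAHFD_Advanced_10104 and 5.12% without mouse CDAHFD_Advanced_9845.

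Moxd1, at chr10:24223517-24302783 (GRCm38.p6), is the gene whose control level was carried by single animals. In hepatocyte nuclei of FPC controls it gave 1 count in mouse FPC_Control_6816, 0 in mouse FPC_Control_6852, 290 in mouse FPC_Control_6952 and 3161 in mouse FPC_Control_6953, or 0.0394, 0, 11.4 and 136 CPM. Mouse FPC_Control_6953 alone held 92.2% of the summed CPM of that group. The FPC mild mice stood at 0.269, 0.0492, 0.076 and 0.574 CPM and the advanced mice at 0.0327, 0 and 0.145 CPM, so that 2 of the 4 controls lay within the range of the diseased mice and the group means (36.8 against 0.242 and 0.0592 CPM) compare 2 mice with the rest. Without mouse FPC_Control_6953 the share of the control mean was 6.33% in mild disease, against 0.659% with it, and 1.55% in advanced disease, against 0.161%. In the CDAHFD study all 4 controls had the transcript, at 13.3, 210, 6.66 and 11.9 CPM, and mouse CDAHFD_Control_9867 held 86.8% of their sum. Without it the share left was 0.668% in mild and 0.545% in advanced disease, against 0.117% and 0.0955% with it. None of the 7 diseased CDAHFD mice exceeded 3 counts: the mild mice had 3, 3, 0 and 0 and the advanced mice 0, 1 and 2. Counts pooled over the libraries of a group and divided by their depth were 1078 times higher in controls than in advanced mice (95% counting interval 369 to 5227, from 6702 against 3 counts), an interval that covers counting error only and not the 31.6-fold range among the controls themselves.

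The 250 bases before the promoter table's starts of Moxd1 (forward strand, chr10:24223267-24223516) and Slc13a2 (reverse strand, chr11:78422235-78422484) are printed 5′ to 3′ from RefSeq sequence of GRCm38.p6, because they hold the only matches found. For Slc13a2 that start lies inside the gene span given above, and 47 bases of the window belong to the span. The letters searched on both strands were TTCNNNGAA (a STAT core), AAAGTCCA (HNF4A), TTGCNNAA (C/EBP), GTTAAT (HNF1), TGTTTAC (FOXA), TATAAA and GGGCGG (GC box), and no match overlapped another; matches are in capitals. Moxd1 holds 1 STAT core, which 7.02% of 32851 mouse promoter windows of this length also hold, and 2 GC boxes, a motif found in 32.7% of the windows. Slc13a2 holds 1 TATAAA on the opposite strand, read here as TTTATA, and 12.4% of the windows hold a TATAAA on either strand. The letters TATAtaa on the gene's own strand overlap that match and were not among those searched. The windows of Lect1 and Lrtm1, like that of Trhde, hold none of these letters. A match is a description of the letters and not a shown binding site.
Moxd1: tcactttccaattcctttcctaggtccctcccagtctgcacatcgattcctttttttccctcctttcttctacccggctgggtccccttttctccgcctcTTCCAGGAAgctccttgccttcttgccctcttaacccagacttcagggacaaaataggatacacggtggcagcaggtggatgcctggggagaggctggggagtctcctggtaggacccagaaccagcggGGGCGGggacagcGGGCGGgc
Slc13a2: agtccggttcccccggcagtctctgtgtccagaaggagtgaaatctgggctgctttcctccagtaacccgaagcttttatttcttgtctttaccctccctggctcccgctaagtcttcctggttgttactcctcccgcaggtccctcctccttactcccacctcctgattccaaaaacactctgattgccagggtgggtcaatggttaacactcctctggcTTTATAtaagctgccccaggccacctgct

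Lect1, at chr14:79637682-79662194 (GRCm38.p6), was nearly undetected in the hepatocyte nuclei of advanced mice. FPC controls stood at 9.03, 8.0, 6.98 and 4.76 CPM, mild mice at 2.89, 1.57, 2.32 and 1.98 CPM, and the 3 advanced libraries held 2, 2 and 0 counts. CDAHFD controls stood at 3.19, 2.37, 5.87 and 5.57 CPM, mild mice at 0.323, 0.163, 0.268 and 0.946 CPM, and the 3 advanced libraries held 0, 0 and 1 count. The groups did not overlap in either study. Mild disease left 30.5% of the control mean on the FPC diet and 10.003% on the CDAHFD, and advanced disease 0.79% and 0.358%. Mouse CDAHFD_Mild_10102 held 55.6% of the mild CDAHFD sum: without it 5.92% was left, and the log2 difference from controls went from -3.71 to -4.38. The pooled count per depth was 127 times higher in controls than in advanced mice on the FPC diet (95% counting interval 49.3 to 466.3) and 192 times on the CDAHFD (34.2 to 7583), so that the depth leaves the size of the difference loosely bounded.

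Lrtm1 lies at chr14:29018208-29033642 (GRCm38.p6), inside the much longer gene Cacna2d3 (chr14:28904943-29722775). Its FPC controls stood at 31.5, 21.6, 40.4 and 17.6 CPM, the mild mice at 4.77, 6.34, 6.65 and 4.75 CPM, and the advanced mice at 0.784, 0.0526 and 0.0966 CPM. Advanced mouse FPC_Advanced_6826 carried 24 of the 27 counts of its group; the mean was 1.12% of the control mean, and 0.269% without that mouse. Without it the estimated log2 difference between advanced and control mice went from -6.60 to -8.84. In the CDAHFD study the controls stood at 11.2, 24.6, 9.36 and 20.0 CPM, the mild mice at 5.77, 4.94, 6.33 and 14.6 CPM, and the advanced mice at 1.01, 0.906 and 1.46 CPM. Mild mouse CDAHFD_Mild_10102, at 14.6 CPM, lay among the controls, and the shares left were 48.7% in mild and 6.92% in advanced disease. Cacna2d3, a calcium channel subunit, was itself at 0.304 to 0.529 CPM on average in the 6 groups of hepatocyte libraries, and since the strand setting of the counting is not given in the sources used here, reads of the overlapping genes may not have been kept apart.

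Sgcz, the longest of the 6 genes at chr8:37517840-38661705 (GRCm38.p6), stood apart in that mild disease left it high. FPC controls had 55.2, 82.2, 15.3 and 21.1 CPM, mild mice 42.7, 70.5, 117 and 141 CPM, and advanced mice 1.31, 1.0 and 0.869 CPM. The mild mean was 214% of the control mean, with overlapping groups, and the advanced mean 2.44%, with every advanced mouse far below every other mouse of the study. CDAHFD controls had 81.2, 12.6, 93.8 and 80.8 CPM, mild mice 51.2, 46.8, 48.5 and 44.1 CPM, and advanced mice 24.0, 30.5 and 11.4 CPM. Here the advanced mice kept 32.8% of the control mean and overlapped the lowest control, mouse CDAHFD_Control_9867, which is the library that matches another mouse's whole liver library (described below).

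**Figure D2:**
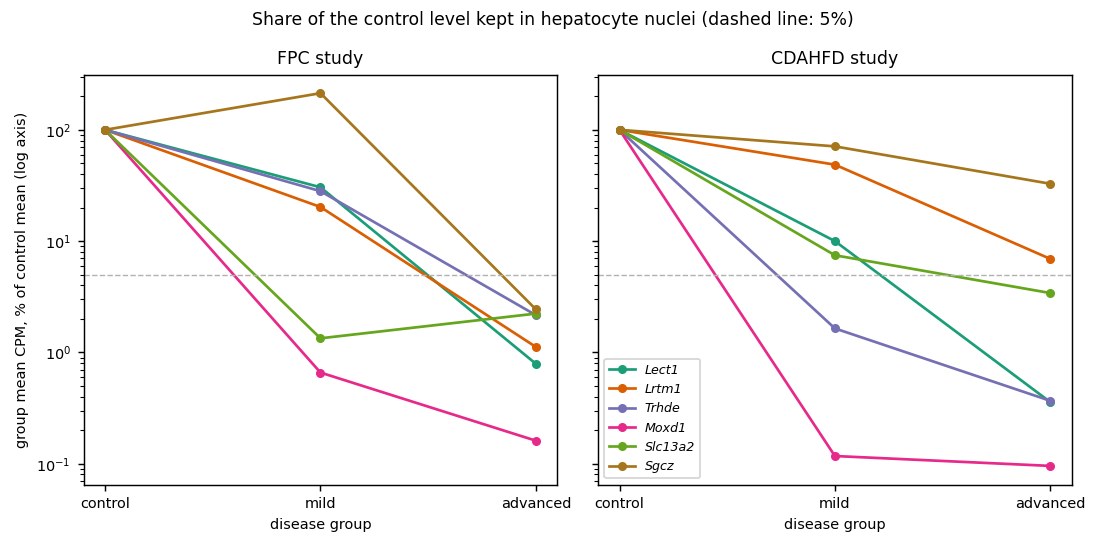
Group mean CPM in hepatocyte nuclei as a percentage of the control mean (log axis) for the 6 genes in control, mild and advanced mice of the FPC study (left) and the CDAHFD study (right). In the FPC study all 6 genes end under the dashed 5% line although Sgcz starts from 214% in mild disease; in the CDAHFD study Trhde is at 1.64% already in mild disease, while Sgcz ends at 32.8% and Lrtm1 at 6.92%.

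The courses through mild disease differed between the genes. In hepatocyte nuclei, 5 of the 6 genes did not overlap the controls in advanced disease, all except Moxd1 on the FPC diet and all except Sgcz on the CDAHFD. In mild disease 4 of the 6 did not, all except Moxd1 and Sgcz (FPC) and all except Lrtm1 and Sgcz (CDAHFD). Of all genes tested, 20.4% (FPC) and 29.2% (CDAHFD) were called lower in advanced disease, and 11.3% and 26.7% in mild disease. With library totals in place of TMM scaling these shares were 7.99%, 12.3%, 4.45% and 13.1%. Between advanced and mild mice 7.49% and 1.52% were called lower. A call is another measure than lying below every control, for which no share over all genes was worked out. These contrasts chose the genes, so nothing is read from the counts. On the FPC diet Slc13a2 was at 1.34% of the control mean in mild disease, Lrtm1 (20.3%), Trhde (28.1%) and Lect1 (30.5%) had kept more, and Sgcz was not lower. Moxd1 has no place in that order, since its 0.659% rests on mouse FPC_Control_6953. On the CDAHFD Moxd1 (0.117%) and Trhde (1.64%) were under 5%, with the single control mouse behind Moxd1 given above. Slc13a2 (7.46%) and Lect1 (10.003%) came next, in an order that turns without mouse CDAHFD_Mild_10102, and Lrtm1 (48.7%) and Sgcz (71.0%) were least reduced. In the authors' deposited table, which lists 5 of the genes, the log2 change in mild FPC disease was -6.54 for Slc13a2, -2.59 for Lrtm1, -2.12 for Trhde, -1.98 for Lect1 and 0.81 for Sgcz, and in mild CDAHFD disease -6.26 for Trhde, -4.03 for Slc13a2, -3.72 for Lect1, -1.37 for Lrtm1 and -0.83 for Sgcz. Moxd1 is not among the rows of that table.

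The whole liver nuclei come from the same mice, and their values were known when the genes were chosen, so they too are a description and give no support for the choice. The log2 estimates (edgeR, ± SE) scale libraries by TMM, which sets the bulk of genes to no change; with library totals alone the median over all genes was 0.44 in advanced FPC and 0.47 in advanced CDAHFD disease, in place of -0.00 and 0.00. The genes called lower or higher over the whole table were 28% and 31.3% in advanced FPC disease with TMM, and 10.8% and 51.5% with library totals. In that group 5 of the 6 genes lay below every control, the exception being Moxd1. A call is another measure than lying below every control, here and in the groups below, so the shares called are no background for such counts. The log2 change was -6.77 ± 0.48 for Slc13a2, -6.57 ± 0.36 for Lrtm1, -6.30 ± 0.29 for Trhde, -5.73 ± 0.71 for Sgcz and -4.66 ± 0.56 for Lect1. Library totals put these values higher by about 0.44 and turned none of them.

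Moxd1 did not pass the filter in whole liver nuclei of the FPC study, where only 2 of the 11 libraries, the controls FPC_Control_6952 (12.5 CPM) and FPC_Control_6953 (115 CPM), held more than 10 counts. Its other controls had 0.131 and 0.188 CPM, the mild mice 0.302, 0.07, 0.104 and 0.174 CPM and the advanced mice 0.0469, 0.123 and 0.172 CPM. The 2 remaining controls thus lay inside the range of the mice with disease here too. With no filter on low counts, the log2 difference between advanced and control mice was -8.47 ± 2.69 (SE), which rests on those 2 controls.

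In mild FPC disease 3 of the 6 genes lay below every control in whole liver nuclei, Slc13a2, Lrtm1 and Trhde, where 18.2% of all genes tested were called lower (6.52% with library totals). Slc13a2 fell by 6.50 ± 0.43 (SE, log2 scale), from 12.8 to 29.1 CPM in controls to 0.0605 to 0.477 CPM in mild mice. The change was -2.73 ± 0.24 for Lrtm1, -2.31 ± 0.21 for Trhde and -1.91 ± 0.40 for Lect1, whose highest mild mouse (3.36 CPM) was above its lowest control (2.91 CPM). For Sgcz the log2 difference was 0.40 ± 0.47, with mild mice at 39.0 to 91.5 CPM and controls at 14.9 to 78.5 CPM.

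Advanced and mild FPC mice were also set side by side in whole liver nuclei, and Sgcz and Slc13a2 took different courses there. Sgcz fell by 6.13 ± 0.72 (SE, log2 scale), while Slc13a2 differed by -0.26 ± 0.67. The change was -3.99 ± 0.26 for Trhde, -3.84 ± 0.36 for Lrtm1 and -2.75 ± 0.57 for Lect1. Over all genes 8.98% were called lower (4.74% with library totals).

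**Figure D3:**
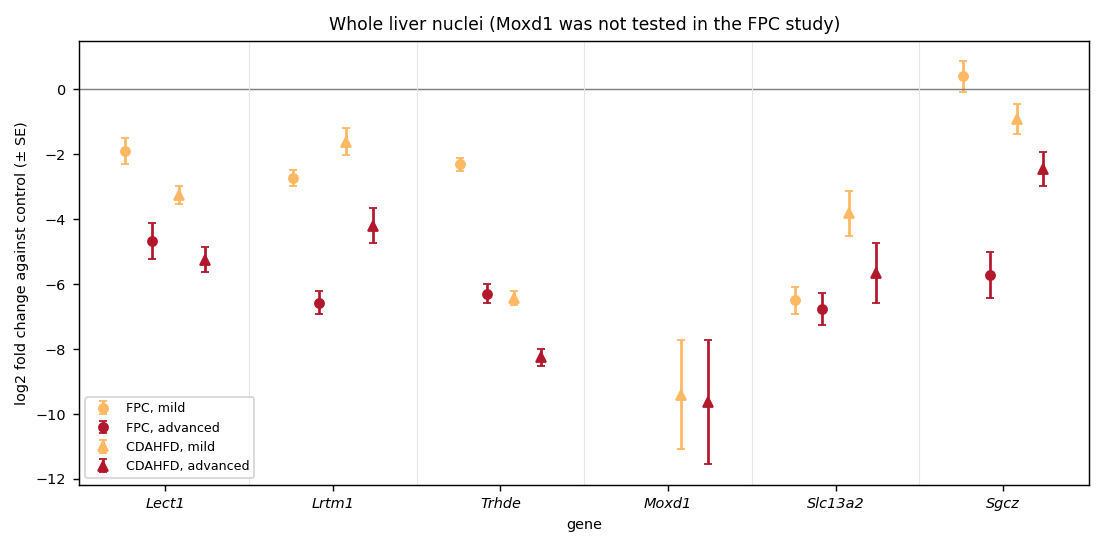
Log2 fold change against control (± SE) of the 6 genes in whole liver nuclei, by diet (circles FPC, triangles CDAHFD) and disease group (orange mild, red advanced); Moxd1 has no FPC values because it did not pass the filter on low counts. Slc13a2 has nearly the same FPC value in mild (-6.50) and advanced (-6.77) disease, Sgcz runs from 0.40 to -5.73, and Trhde in mild CDAHFD disease (-6.42) is as low as in advanced FPC disease (-6.30).

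On the CDAHFD 5 of the 6 genes lay below every control in whole liver nuclei in advanced disease, with Sgcz overlapping, where 25.9% of 14098 genes were called lower and 29.7% higher (10.7% and 52% with library totals). Trhde changed by -8.26 ± 0.27 (SE, log2 scale), Slc13a2 by -5.65 ± 0.93, Lect1 by -5.26 ± 0.39, Lrtm1 by -4.2 ± 0.54 and Sgcz by -2.46 ± 0.53. Moxd1 differed by -9.63 ± 1.92, an estimate over almost no counts: it passed the filter through its controls, and the 7 diseased libraries held 0 to 3 counts each. It was -7.07 without mouse CDAHFD_Control_9862. For Slc13a2 the value was -7.23 without advanced mouse CDAHFD_Advanced_9845 and -5.05 without advanced mouse CDAHFD_Advanced_10104, where the 3 advanced libraries held 4, 1 and 0 counts.

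In mild CDAHFD disease 4 of the 6 genes lay below every control in whole liver nuclei, with 24.5% of all genes called lower (8.94% with library totals); Lrtm1 and Sgcz overlapped. Trhde changed by -6.42 ± 0.21 (SE, log2 scale), Slc13a2 by -3.82 ± 0.70, Lect1 by -3.26 ± 0.29 and Lrtm1 by -1.61 ± 0.41. Moxd1 differed by -9.40 ± 1.68, again over 0 to 3 counts a mild library, and by -6.85 without control CDAHFD_Control_9862. Without mild mouse CDAHFD_Mild_9852 the value for Slc13a2 was -4.59. Sgcz differed by -0.91 ± 0.45, with 1 low control, CDAHFD_Control_9862 (15.4 CPM against 96.5, 98.3 and 79.0).

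Advanced and mild CDAHFD mice differed in few genes altogether, 1.05% of all genes being called lower in whole liver nuclei (0.631% with library totals). Trhde fell further by 1.84 ± 0.27 (SE, log2 scale), from 1.83, 1.77, 1.45 and 1.81 CPM in the mild mice to 0.423, 0.607 and 0.478 CPM in the advanced mice. The difference was -2.59 ± 0.52 for Lrtm1, -2.0 ± 0.43 for Lect1, -1.55 ± 0.51 for Sgcz, -1.83 ± 1.17 for Slc13a2 and -0.23 ± 3.52 for Moxd1. For Slc13a2 it was -3.42 without mouse CDAHFD_Advanced_9845, -1.25 without mouse CDAHFD_Advanced_10104 and -1.07 without mouse CDAHFD_Mild_9852.

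Whether the change differed between the diets was tested in the whole liver nuclei of all 22 mice; a negative value means a lower level after CDAHFD feeding, each relative to its own controls. The genes were chosen for their loss with these libraries known, and the adjusted p-values make no allowance for that choice. They are printed as a description of the 6 genes and give no support for the choice. Trhde differed between the diets at both stages: -4.12 ± 0.30 in mild disease (edgeR, adjusted p = 9.1e-08) and -1.97 ± 0.38 in advanced disease (0.0044), against a background of 5.01% and 4.67% of 14413 genes called in either direction. Sgcz had 3.25 ± 0.86 in advanced disease (0.036), a smaller fall on the CDAHFD. That call was lost with no filter on low counts (0.053), with only the groups compared in the fit (0.104), and without any of the FPC mice FPC_Control_6816, FPC_Control_6852, FPC_Advanced_6826, FPC_Advanced_6880 and FPC_Advanced_6904 or the CDAHFD mice CDAHFD_Control_10113, CDAHFD_Advanced_9845 and CDAHFD_Advanced_9896 (up to 0.094). Lrtm1 had 2.36 ± 0.71 in advanced disease and missed the threshold (0.060). It passed without FPC control FPC_Control_6953 (0.044) or CDAHFD control CDAHFD_Control_9862 (0.019). The remaining differences missed the threshold, among them Slc13a2 in mild disease, with 2.67 ± 1.0 (0.130).

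Setting the 2 fractions of a mouse side by side showed that the control levels were nearly the same in whole liver as in hepatocyte nuclei. In FPC controls the log2 ratio of hepatocyte to whole liver nuclei was 0.16 to 0.40 for the 6 genes (median of all genes 0.11), and in CDAHFD controls 0.11 to 0.38 (0.20). The 8 hepatocyte markers had medians of 0.25 and 0.29. Endothelial markers, by contrast, had medians of -3.30 and -3.55 and macrophage markers -3.23 and -3.63. The FPC ratio of Moxd1 is loosely determined: without the whole liver library of mouse FPC_Control_6953 it was 3.39, and without its hepatocyte library -2.89. The same holds for the CDAHFD ratio, which was 2.82 without the whole liver library labelled CDAHFD_Control_9862 and -2.18 without the hepatocyte library labelled CDAHFD_Control_9867.

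Lect1 had more counts in whole liver than in hepatocyte nuclei in advanced disease. In the hepatocyte nuclei of the 6 advanced mice it had 0 to 0.105 CPM, and in their whole liver nuclei 0.0941 to 0.515 CPM, with the whole liver value above the hepatocyte value in each of the 6 mice. The 26 counts over the 3 advanced FPC livers compare with 4 in their hepatocyte nuclei, and the 11 counts over the 3 advanced CDAHFD livers with 1. The log2 difference of advanced FPC mice from controls was -4.66 for Lect1 in whole liver and -7.22 in hepatocyte nuclei; whether these differ was not tested.

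**Figure D4:**
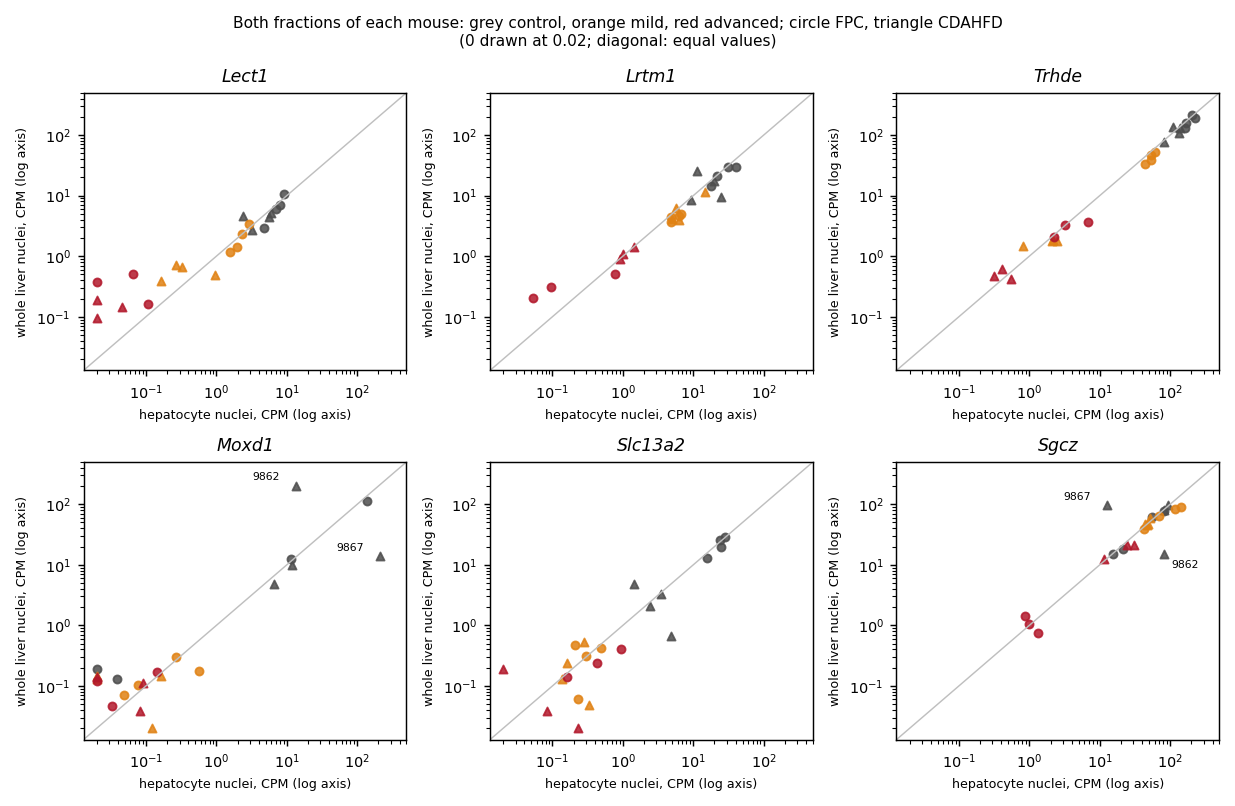
CPM in hepatocyte nuclei (x, log axis) against whole liver nuclei (y, log axis) of the same mouse for the 6 genes; grey control, orange mild, red advanced, circles FPC, triangles CDAHFD, values of 0 drawn at 0.02. Most points lie near the diagonal; the advanced mice in Lect1 lie above it, low values of Moxd1, Slc13a2 and Lrtm1 scatter, and the CDAHFD controls CDAHFD_Control_9862 and CDAHFD_Control_9867 lie on opposite sides for Moxd1 and Sgcz.

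Control mice CDAHFD_Control_9862 and CDAHFD_Control_9867 of the CDAHFD study match each other crosswise between the fractions. Moxd1 was at 13.3 CPM in the hepatocyte nuclei labelled CDAHFD_Control_9862 and at 202 CPM in the whole liver nuclei labelled CDAHFD_Control_9862, and at 210 and 14.0 CPM in those labelled CDAHFD_Control_9867. Sgcz showed the same crossing, with 81.2 and 15.4 CPM for label CDAHFD_Control_9862 and 12.6 and 96.5 CPM for label CDAHFD_Control_9867. Lrtm1 (11.2 and 25.7 against 24.6 and 9.66 CPM) and Slc13a2 (1.44 and 4.85 against 4.78 and 0.679 CPM) crossed in the same way. Over 14627 genes, the deviations of the 2 fractions from their group means went together in 20 of the 22 mice, and these 2 labels were the exceptions. Both mice are controls of the same study, so that no group mean or test above changes with the order of the 2 labels; only statements on a single mouse do.

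Moxd1 and Sgcz took opposite positions among the FPC controls and in a single library of the CDAHFD controls. In hepatocyte nuclei, FPC controls FPC_Control_6952 and FPC_Control_6953 had the higher Moxd1 values (11.4 and 136 CPM) and the lower Sgcz values (15.3 and 21.1 CPM), whereas controls FPC_Control_6816 and FPC_Control_6852 had 0.0394 and 0 CPM of Moxd1 and 55.2 and 82.2 CPM of Sgcz. The CDAHFD library with 210 CPM of Moxd1 had 12.6 CPM of Sgcz, and the other 3 had 6.66 to 13.3 CPM of Moxd1 and 80.8 to 93.8 CPM of Sgcz. The pattern did not hold across the studies. At 11.4 CPM of Moxd1, mouse FPC_Control_6952 had 15.3 CPM of Sgcz, and at 11.9 CPM mouse CDAHFD_Control_10113 had 80.8 CPM. The whole liver nuclei, which come from the same mice and are no separate evidence, had 12.5 and 115 CPM of Moxd1 with 14.9 and 18.3 CPM of Sgcz in mice FPC_Control_6952 and FPC_Control_6953. The library labelled CDAHFD_Control_9862 had 202 CPM of Moxd1 with 15.4 CPM of Sgcz. With 4 controls a study and mice chosen for the description after their values were seen, no test was made.

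**Figure D5:**
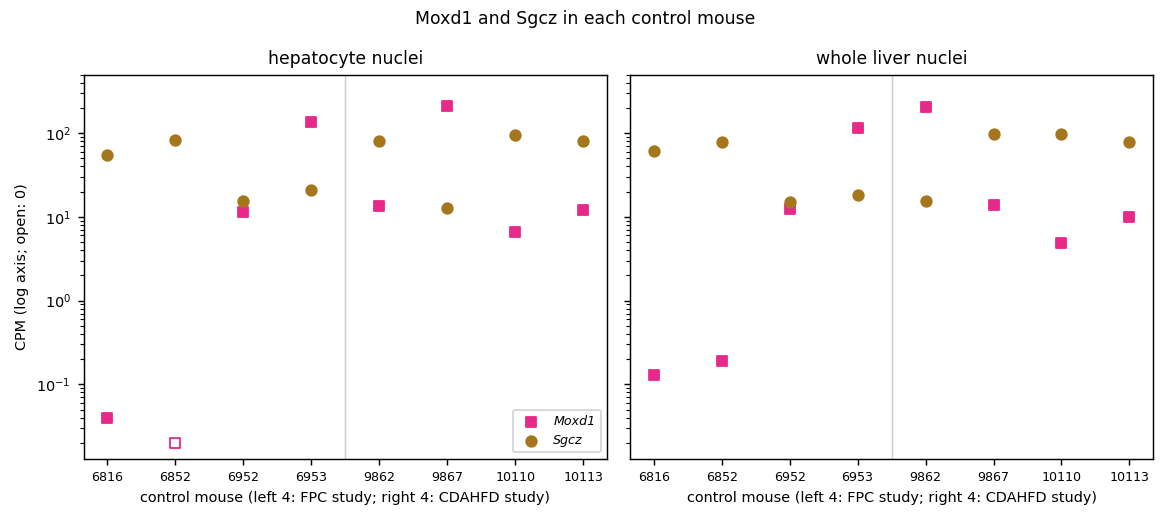
Moxd1 (squares) and Sgcz (circles) in CPM (log axis) in each of the 8 control mice, in hepatocyte nuclei (left) and whole liver nuclei (right); the open square, drawn at 0.02, is a library with no count. The 3 lowest Sgcz values in each panel, 12.6 to 21.1 CPM in hepatocyte nuclei and 14.9 to 18.3 CPM in whole liver nuclei, belong to the 2 libraries with the highest Moxd1 values and to mouse FPC_Control_6952; labels CDAHFD_Control_9862 and CDAHFD_Control_9867 change places between the panels.

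Among the 6 genes themselves, likeness over the 22 hepatocyte libraries (Pearson's r of log2(CPM + 0.1), a description over libraries that share their disease groups) was highest for Lect1 and Trhde (0.93) and lowest for Slc13a2 and Sgcz (0.09) and for Moxd1 and Sgcz (0.10). Of 13649 genes, the most like Trhde were Ldah (0.97), a lipid droplet hydrolase, Grm8 (0.96), a glutamate receptor, and Stard7 (0.96). Grm8 went from 549 CPM in FPC controls to 110 in mild and 28.5 in advanced disease, and from 288 to 13.4 and 6.35 CPM on the CDAHFD. As for Trhde, a smaller share of the control level was left in mild disease on the CDAHFD. Lect1 was most like Ido2 (0.95), an enzyme of tryptophan breakdown, 9830147E19Rik (0.94) and the sodium channel subunit Scnn1a (0.94). Lrtm1 was most like the sulfotransferase Sult2a8 (0.93), the major urinary protein gene Mup15 (0.93) and Ido2 (0.92).

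The other 3 genes had looser neighbours. All neighbours were picked by likeness over these same libraries, so a shared course is built in. Slc13a2 was most like the calcium channel gene Cacna1d (0.91), Lgr4 (0.90) and Ncam2 (0.89). Cacna1d stood at 70.4 CPM in FPC controls, 24.9 in mild and 33.9 in advanced disease, with no lower mean in advanced than in mild mice. Lgr4 (225 CPM in mild and 212 in advanced FPC disease) and Ncam2 (151 and 86.0 CPM) had lower means in advanced mice. Sgcz was most like Cyp8b1 (0.79), which makes cholic acid in bile acid synthesis, Sult2a8 (0.77) and the transcription factor gene Rfx4 (0.77). Cyp8b1, like Sgcz, was not lower on average in mild FPC disease, with 18.9 CPM in controls, 21.0 in mild and 2.67 in advanced disease. Sult2a8 (4157 CPM in FPC controls and 1791 in mild disease) and Rfx4 (40.4 and 27.7 CPM) were lower there. Moxd1 was most like the complement genes C8a (0.82) and Hc (0.80) and Serpina1e (0.80), none of which came near its range: C8a was at 1039, 637 and 536 CPM in the 3 FPC groups.

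Relatives of each gene, from lists of the same protein families, changed in mixed directions in whole liver nuclei, and the counts depend on the scaling. Each is to be read against all genes: 28% were called lower and 31.3% higher in advanced FPC disease, and 25.9% and 29.7% in advanced CDAHFD disease (with library totals 10.8% and 51.5%, and 10.7% and 52%). Of the 5 tested genes of the Slc13 and citrate list, 2 were called higher and 3 lower in advanced FPC disease (2 and 1 with library totals), and of 4 on the CDAHFD 1 was higher and 2 lower (2 and 1). The dicarboxylate transporter Slc13a3 rose by 1.78 ± 0.27 (edgeR, adjusted p = 1.2e-04) and the citrate transporter Slc13a5 by 1.10 ± 0.25 (0.0020) in advanced FPC disease, and both were called with library totals too. Acly, which splits cytosolic citrate, changed by -1.16 ± 0.35 on the FPC diet (0.013, and 0.065 with library totals). On the CDAHFD Slc13a3 rose by 0.91 ± 0.27 (0.013) and Acly fell by 2.56 ± 0.52 (0.0018). Of 9 tested genes of the list of M1 aminopeptidases and the system of thyrotropin-releasing hormone, the relatives of Trhde, 3 were lower and none higher in advanced FPC disease, and 2 lower and 2 higher on the CDAHFD, shares of lower genes near that of all genes. With library totals 2 were lower and 2 higher, and 1 lower and 5 higher. Enpep, which cleaves angiotensin II, fell under both scalings, by 1.32 ± 0.23 (3.4e-04) and 2.67 ± 0.18 (1.0e-07) with TMM.

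Pam, the only relative of Moxd1 that passed the filter and the enzyme that amidates peptide hormones, rose by 1.43 ± 0.16 in advanced FPC disease (edgeR, adjusted p = 7.1e-06) and by 0.89 ± 0.13 on the CDAHFD (9.3e-05). Of 12 tested genes of the sarcoglycan and dystrophin complex, 6 rose and 1 fell in advanced FPC disease, and 4 rose and 4 fell on the CDAHFD; with library totals the counts were 9 and 0, and 7 and 1. Utrn, the autosomal relative of dystrophin, had -0.54 (FPC) and -0.03 (CDAHFD) with TMM and -0.10 and 0.43 with library totals, so that its direction on the CDAHFD turned with the scaling. Dmd itself had -0.18 and -0.74 with TMM and 0.26 and -0.28 with library totals. Of the family of Lect1, which shares a chaperone-like domain, 2 were tested. Itm2c rose by 1.46 ± 0.14 and 0.66 ± 0.16, whereas Itm2b had a lower value with TMM only: its mean level was 175.0 CPM in FPC controls and 177.4 CPM in advanced mice, and 167.6 CPM in both CDAHFD groups. Of 3 tested relatives and neighbours of Lrtm1, 2 rose on each diet under both scalings: Cacna2d1, by 2.73 ± 0.16 and 1.93 ± 0.21, and Lrtm2, by 4.82 ± 0.74 and 6.62 ± 1.52. Cacna2d3, the gene around Lrtm1, differed by 0.19 and 0.04 on the log2 scale, with adjusted p of 0.570 and 0.928.

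Lists of genes typical of hepatocytes were set beside the 6 genes in the same whole liver nuclei, where 28% (FPC) and 25.9% (CDAHFD) of all genes were called lower in advanced disease. The lists here and above were chosen with earlier results of these data known, so their counts are a description and not a test of a set. Of 20 tested genes of male-biased liver expression, which depend on the pulses of growth hormone, 17 were called lower and none higher on either diet (16 and none with library totals), with medians of -3.49 (FPC) and -3.99 (CDAHFD) against -0.00 and 0.00 over all genes. The examples with the highest levels were Cyp7b1 (-4.2 ± 1.07 and -3.78 ± 0.61), Slco1a1 (-6.87 ± 0.60 and -7.19 ± 0.36), Nudt7 (-3.53 ± 0.44 and -3.02 ± 0.56) and C6 (-1.82 ± 0.42 and -1.05 ± 0.39). Each was called on both diets by edgeR, and with library totals each except C6 on the CDAHFD (adjusted p = 0.206). Of 18 liver-enriched transcription factors 13 were lower and 1 higher on the FPC diet, and 14 and 1 on the CDAHFD, with medians of -1.03 and -1.12; with library totals the counts were 11 and 1, and 8 and 2. Ppara changed by -1.32 ± 0.16, Nr1h4 by -1.21 ± 0.25 and Rxra by -1.13 ± 0.14 on the FPC diet, each called under both scalings. Of 10 genes of growth hormone signalling 3 were lower and 3 higher on the FPC diet, and 3 lower and 1 higher on the CDAHFD, so that the share of lower genes was close to that of all genes. Among them Ghr, the growth hormone receptor, changed by -2.45 ± 0.34 and -2.72 ± 0.24. The 8 hepatocyte markers were all called lower on both diets under both scalings, with medians of -1.16 and -1.35, and -0.71 and -0.88 with library totals. In advanced CDAHFD disease the 6 genes themselves, chosen for their falls, ranged from -2.46 to -9.63. The last value is that of Moxd1, which had -7.07 without mouse CDAHFD_Control_9862.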

How the data were processed

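Nuclear RNA from whole liver and from pulled-down hepatocyte nuclei of 22 mice was analysed as counts per gene, which the authors deposited unnormalised. STAR 2.4.2a, DESeq2 1.24.0 and mm10 are named in the submitters' processing notes; the counting tool and its strand setting are not given in the sources used here. The authors' deposited table of log2 fold changes with adjusted p-values between hepatocyte groups was used for symbols and, in a single paragraph, for its log2 values. The members and gene lists were chosen with earlier results of these data known.

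CPM were computed from the library totals. Group differences were fitted with edgeR 4.0.16 (limma 3.58.1, R 4.3.3: TMM scaling, filterByExpr, robust quasi-likelihood F-test, Benjamini-Hochberg adjustment over all genes tested, threshold 0.05), on the 11 libraries of a fraction and study, or on all 22 whole liver libraries for the diet difference; the SE was taken as the estimate over the root of the F statistic. For the 6 genes p-values were read for the diet difference only, although tests of disease groups in whole liver nuclei had been planned, since the rule reads both fractions. The libraries of the diet difference are among those the rule reads, so its p-values are a description too. The script was tested on simulated data. Counting intervals are exact 95% intervals of a ratio of 2 Poisson counts, and PCR duplicates are not removed by molecular identifiers, so they cover counting error only. Of the identifiers, 13147 took their symbol from the deposited fold-change table, 6879 from RefSeq, and 79 had none. Promoter windows are the 250 bases before the start in a RefSeq promoter table on GRCm38.p6, found for 5 of the 6 genes; that start lies inside the RefSeq gene span for Slc13a2 (47 bases of overlap) and Lect1 (11 bases), and Sgcz is named only. The text names the 6 genes, up to 4 genes of each list by the highest mean CPM, Cacna2d3 as the gene overlapping Lrtm1, and the 3 most like genes of each member by Pearson's r.

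The labels give both fractions of a mouse its number, so the numbers pair the libraries. The deviations of the 2 fractions from their group means correlated at over 0.1 in 20 of 22 mice, all except CDAHFD_Control_9862 and CDAHFD_Control_9867. Alternatives were DESeq2 1.42.0, other scaling and filters, fits of only the groups compared, the animal as a block, and leaving out each library; leaving out both CDAHFD_Control_9862 and CDAHFD_Control_9867, exchanging them, scaling by library totals, and shares of the control mean without each library were added after the data had been seen.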

Additional observations from a re-analysis of the deposited data

Results flagged for a closer look

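In 9 of the 48 sets of 4 libraries (6 genes in 8 groups of 4), a single library stood apart from the others by more than Dixon's 95% critical value of 0.829. For independent sets of normal values chance alone flags about 1 in 20. Here both fractions of a mouse enter and some sets hold very few counts, so the 9 cannot be judged by that rate. The number beside each is the gap to the nearest library as a share of the group's range. Moxd1 accounts for 5 of them: control mouse FPC_Control_6953 was the highest in hepatocyte nuclei (0.916) and in whole liver nuclei (0.893) of the FPC study, the library labelled CDAHFD_Control_9867 was the highest among CDAHFD controls in hepatocyte nuclei (0.967), the library labelled CDAHFD_Control_9862 the highest in whole liver nuclei (0.954), and mild mouse CDAHFD_Mild_9852, with no count, the lowest in whole liver nuclei (0.899). Sgcz had 2: the library labelled CDAHFD_Control_9867 was the lowest of the CDAHFD controls in hepatocyte nuclei (0.841), and mild mouse CDAHFD_Mild_9852 the highest in whole liver nuclei (0.840). Lrtm1 was highest in mild CDAHFD mouse CDAHFD_Mild_10102 in hepatocyte nuclei (0.856), and Trhde was lowest in mild CDAHFD mouse CDAHFD_Mild_9894 in whole liver nuclei (0.857).

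In whole liver nuclei the change differed between the diets for Trhde, by a test of the difference itself. The value was -4.12 in mild disease (log2 scale, CDAHFD change minus FPC change) and -1.97 in advanced disease. Sgcz had 3.25 in advanced disease and passed the threshold in the main fit (edgeR, adjusted p = 0.036). That call was kept in 11 of 21 alternatives and lost in the others, with adjusted p up to 0.104. The genes were chosen with these libraries known, so these calls are a description. The feeding periods of 20 and 7 weeks differ together with the diets, and their parts cannot be told apart.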

How the results depend on the processing

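In whole liver nuclei, 33 group contrasts of the 6 genes had a main value, since Moxd1 had none in the FPC study. Direction was kept in 447 of 449 alternative values, and 429 differed from the main value by less than its SE. Genes chosen for large falls leave little room for a change of sign, so this count gives no support. In the diet difference, direction and side of the threshold were kept in 245 of 264 values. Values that rest on single mice are given beside the results. Estimates that changed sign were Slc13a2 in advanced against mild FPC mice (0.11 without mild FPC_Mild_6888), Moxd1 in advanced against mild CDAHFD mice (0.17 without advanced CDAHFD_Advanced_9896), and in the diet difference Moxd1 (advanced 1.36 and mild 0.83 without control CDAHFD_Control_9862, 1.74 and 1.21 without both CDAHFD_Control_9862 and CDAHFD_Control_9867) and Slc13a2 (advanced -0.47 without advanced CDAHFD_Advanced_9845). Over all mice left out in turn these 5 values ran from -0.72 to 0.11, -0.63 to 0.17, -4.12 to 1.36 (advanced) and -4.65 to 0.83 (mild), and -0.47 to 1.68. Lrtm1 was called in the advanced diet difference by DESeq2 (adjusted p = 0.0059) and without both CDAHFD_Control_9862 and CDAHFD_Control_9867 (0.033).

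Genes called in advanced against mild CDAHFD mice numbered 265 in whole liver nuclei, 707 with DESeq2, 483 with only the groups compared and 66 to 241 with each mouse left out; in hepatocyte nuclei 375, 1119, 745 and 60 to 309, and 634 (519 higher) with library totals. Diet differences were called for 673 genes in advanced disease (DESeq2 1074; leaving out each mouse 398 to 776) and 722 in mild disease (1111; 423 to 797). Leaving out each mouse gave 1956 to 3729 calls, for 3150, in whole liver nuclei of advanced against mild FPC mice.

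Between fractions of FPC controls 2512 genes were called, and 5767 with the animal as a block. In CDAHFD controls 4444 were called, 6186 with the block as labelled, 8151 with the block and CDAHFD_Control_9862 and CDAHFD_Control_9867 exchanged, 2075 without both mice, 2772 (340 higher) with size factors by relative log expression, 2656 (98 higher) with library totals and 2050 with only the groups compared (no p was read there for the 6 genes). For Moxd1, Slc13a2 and Lect1 the few counts of advanced mice limit the fold change. In whole liver nuclei of the FPC study Moxd1 had no value wherever it failed the filter; DESeq2 gave -8.62 in advanced against control mice.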
